A study of Mus musculus with 12 samples.

Results

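The genes described here encode 10 proteins of cell-cell junctions: the 4 plakophilins (Pkp1, Pkp2, Pkp3 and Pkp4), p120 catenin (Ctnnd1) and its relative Arvcf, β-catenin (Ctnnb1), plakoglobin (Jup), N-cadherin (Cdh2) and OB-cadherin (Cdh11). They are 10 of 19687 named genes measured in the thoracic aorta of 12 male C57BL/6 mice. The tested mice were 7 transgenic animals that carried the human PPARγ P467L mutant, a dominant-negative form of a ligand-activated nuclear receptor, under the promoter of smooth muscle myosin heavy chain, so that it was directed to vascular smooth muscle. They were set against 5 nontransgenic littermates, and each aorta went to its own Affymetrix mouse exon array. The labels state no age. A member was a row annotated with exactly 1 gene symbol, and where a gene had more than 1 such row, the row with the highest mean over the 12 arrays was taken. The family was selected on the measured P467L difference of Pkp4, whose level had been seen to be lower in these same arrays, and the rows on their mean levels, so the Pkp4 difference is given as a description, without a test.

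Cadherins span the membrane and bind cadherins of the neighbouring cell. Inside the cell, p120 catenin and its relatives hold the cadherin at the membrane, while β-catenin or plakoglobin bind its tail and, through α-catenin, the actin cytoskeleton. β-catenin that is not held at junctions or degraded acts in the nucleus with TCF and LEF factors as the effector of Wnt signalling. The plakophilins carry the same armadillo repeats: Pkp1, Pkp2 and Pkp3 belong to desmosomes, whereas Pkp4, also called p0071, is closer to p120 catenin and is found at adherens junctions. N-cadherin and OB-cadherin are cadherins of mesenchymal cells, and N-cadherin is a cadherin known from vascular smooth muscle.

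The start-site regions of Pkp4 are shown because it was the member with the lowest P467L level relative to littermates, and that of Ctnnd1 because it held the only match to a PPAR half-site among the members. The sequences are RefSeq's, in build GRCm38.p6, which is not the mm9 build of the arrays, and each is the 250 bases before an annotated start, 5′ to 3′. RefSeq's promoter table held 5 of the 10 members. In the Pkp4 sequences the capitals mark CCAAT boxes on either strand, and in that of Ctnnd1 they mark AGGTCA, the half-site bound by PPAR and related nuclear receptors. The regions are chr2:59160600-59160849 (plus strand) and chr2:59161619-59161868 (plus strand) for Pkp4, and chr2:84650741-84650990 (minus strand) for Ctnnd1.
Pkp4, upstream start: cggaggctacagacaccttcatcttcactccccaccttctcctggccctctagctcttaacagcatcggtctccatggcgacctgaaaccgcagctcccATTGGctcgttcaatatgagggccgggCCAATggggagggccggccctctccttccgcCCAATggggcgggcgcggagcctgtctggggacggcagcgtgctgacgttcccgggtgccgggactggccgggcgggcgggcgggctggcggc
Pkp4, downstream start: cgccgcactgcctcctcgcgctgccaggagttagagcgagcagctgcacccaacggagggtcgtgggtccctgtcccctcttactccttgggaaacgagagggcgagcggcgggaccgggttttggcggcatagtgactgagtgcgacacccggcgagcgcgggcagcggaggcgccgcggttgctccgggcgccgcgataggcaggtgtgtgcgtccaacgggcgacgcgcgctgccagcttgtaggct
Ctnnd1, downstream start: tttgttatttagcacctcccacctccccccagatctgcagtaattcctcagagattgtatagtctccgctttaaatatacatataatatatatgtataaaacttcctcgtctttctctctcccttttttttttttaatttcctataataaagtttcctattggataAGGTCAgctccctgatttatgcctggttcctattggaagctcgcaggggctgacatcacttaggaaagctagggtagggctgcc

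Both Pkp4 sequences were rich in G and C, at 68.4% and 70%, with 21 and 32 CpG dinucleotides, whereas the Ctnnd1 sequence shown had 40% and 3. Motifs were searched on both strands in the full RefSeq windows, which run on for 50 bases past the start. The 5 matched members had 10 windows. AGGTCA was found in 1 of these 10, a window of Ctnnd1, and in 16.3% of all 32851 windows. A direct repeat of AGGTCA with 1 base between the copies, the form of a PPAR response element, was in none of them and in 0.0396% of all windows. CTTTGAT, bound by TCF and LEF factors, was likewise in none and in 3.73% of all windows. CCAAT, a common promoter element that was chosen after the Pkp4 sequence had been read, was in 7 of the 10 and in 37.4% of all windows. No match overlapped one to another motif in the sequences shown. A missing match says only that these letters are not in these windows.

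The values are log2 intensities of rows, summarised by the authors with RMA. Genes for olfactory and vomeronasal receptors (918 of them) served as a floor, since few are expressed outside sensory tissue, and the 95% point of their mean levels, 5.18, is called background here. Array upper quartiles ran between 6.10 and 6.38 and did not separate the groups (P467L minus nontransgenic -0.039, exact two-sided permutation p = 0.489 over 792 splits), although the P467L array was the dimmer in all 5 pairs of equal replicate number. For the array median the difference was -0.015 (exact two-sided permutation p = 0.104). Of the 9 smooth muscle markers measured, all lay above background in both groups, with a mean level between 10.23 and 10.59 in P467L arrays and between 10.31 and 10.51 in nontransgenic arrays. The skeletal muscle markers stood apart in P467L replicate 4, where the list's mean reached 8.06. The row of Pparg does not check the labels, since it is not known whether its probes detect the human transgene. Different rows carry different probes, so levels of different genes are not ranked against each other.

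Pkp4 was lower in every P467L aorta than in any nontransgenic aorta. Its log2 level had a lowest value of 7.06, a median of 7.43 and a highest of 7.71 in 7 P467L aortas, against 8.26, 8.36, 8.06, 8.49 and 8.34 in nontransgenic replicates 1 to 5. The group means were 7.45 ± 0.22 (SD, n = 7) in P467L and 8.30 ± 0.16 (SD, n = 5) in nontransgenic aortas. The difference was -0.86 ± 0.11 (SE) on the log2 scale, with a 95% interval from -1.10 to -0.61, or 0.553 times the nontransgenic intensity. Both means lay above background. In bulk tissue, fewer cells that express a gene and less RNA per cell cannot be told apart.

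By the size of its fall Pkp4 ranked 21st of the 19687 genes. In the fit over all genes with limma, 48 genes (0.244%) passed an adjusted p under 0.05, 25 of them lower (0.127%), and Pkp4 was 1 of these 25. With the replicate number as a block 30 genes passed. P467L replicates 6 and 7 have no nontransgenic array of equal number, so the block fit takes its differences from fewer arrays. The groups did not overlap in 69 genes that were lower in P467L (0.350%), Pkp4 among them. Because this difference led to the choice of the family, nothing is read from these counts. Within the 5 pairs of equal replicate number the P467L array was the lower in each, as the lack of overlap requires, by between -1.07 and -0.71. Pkp4 had 1 row annotated with its symbol alone, so no second such row bears on the difference.

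**Figure D1:**
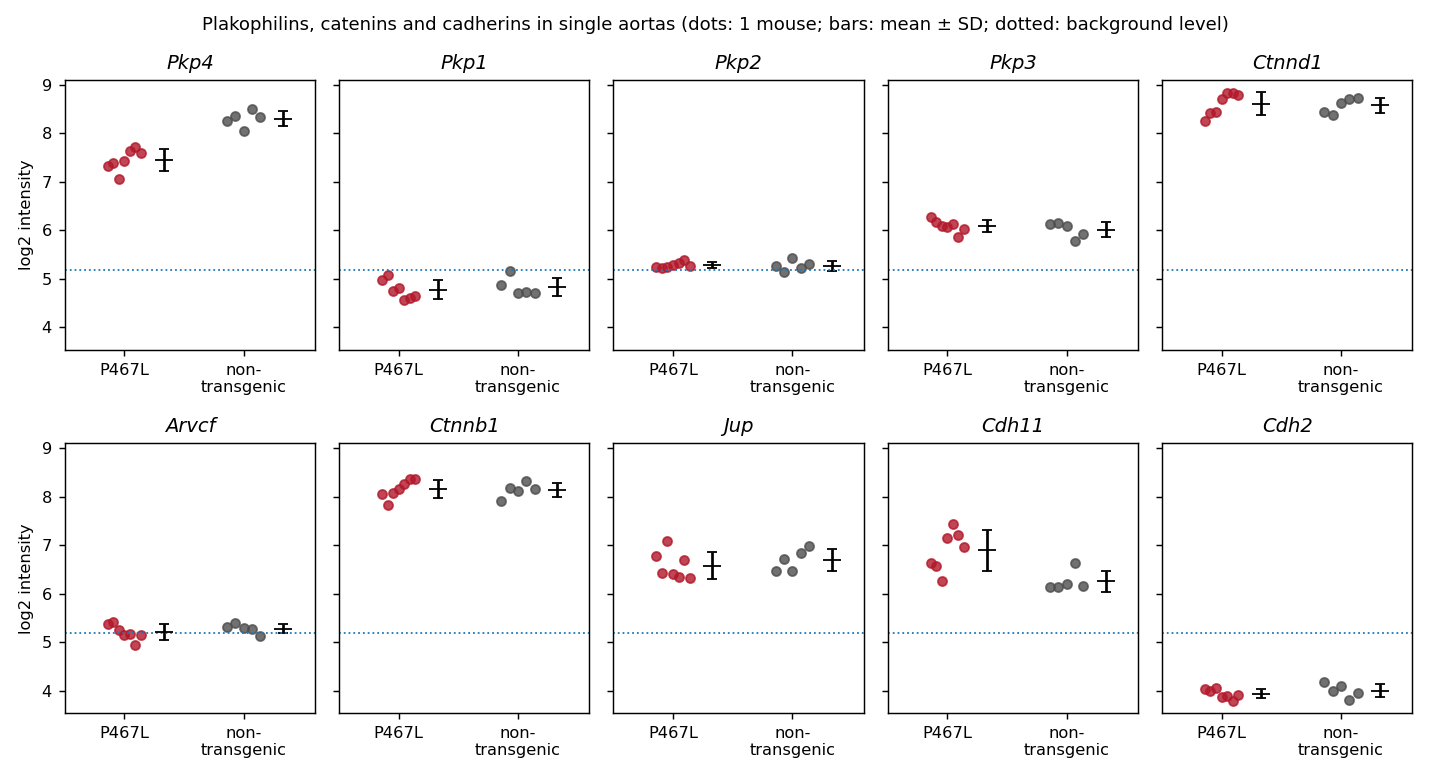
Log2 intensity of the 10 genes in single aortas, P467L (red, n = 7) left of nontransgenic (grey, n = 5); each dot is 1 mouse in order of replicate number, bars are mean ± SD, and the dotted line is the background level of 5.18. Pkp4 is the only panel in which the groups do not overlap, and Pkp1 and Cdh2 lie under the line on average in both groups.

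Of the 3 desmosomal plakophilins, only Pkp3 had a row clearly above background. Pkp3 had a lowest value of 5.86, a median of 6.08 and a highest of 6.27 in P467L aortas, against 6.13, 6.14, 6.08, 5.78 and 5.93 in nontransgenic aortas. The groups overlapped, with a difference of 0.07 ± 0.09 (95% interval -0.12 to 0.26). In all 5 pairs of equal replicate number Pkp3 was higher in the P467L array, by 0.0027 to 0.29. With the replicate block its difference was 0.13 and did not pass (limma adjusted p = 0.571). Pkp2, the plakophilin of cardiac desmosomes, ran from 5.23 to 5.38 in P467L and from 5.15 to 5.42 in nontransgenic aortas, at about the background level, and differed by 0.014 ± 0.065. Pkp1, which is known from stratified epithelia, averaged 4.77 ± 0.19 (SD, n = 7) in P467L and 4.83 ± 0.19 (SD, n = 5) in nontransgenic aortas, under background in both. Its difference was -0.06 ± 0.11, but a row under background cannot show whether Pkp1 mRNA differed. None of the 3 passed the test (limma adjusted p = 0.999 for each).

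The nearest relatives of Pkp4 in this set, p120 catenin and Arvcf, did not pass either. Ctnnd1, p120 catenin, was a bright row, with a lowest value of 8.24, a median of 8.71 and a highest of 8.84 in P467L aortas. Its nontransgenic values were 8.44, 8.38, 8.62, 8.71 and 8.72, within the P467L range. The difference was 0.04 ± 0.12, with a 95% interval from -0.21 to 0.29. Arvcf averaged 5.20 ± 0.16 (SD, n = 7) in P467L and 5.28 ± 0.09 (SD, n = 5) in nontransgenic aortas, at about the background level, with a difference of -0.07 ± 0.09 (95% interval -0.26 to 0.11). The limma adjusted p was 0.999 for both.

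Among the catenins that bind the cadherin tail, Ctnnb1 was nearly level between the groups. β-Catenin had a lowest value of 7.83, a median of 8.16 and a highest of 8.37 in P467L aortas, against 7.90, 8.17, 8.11, 8.31 and 8.17 in nontransgenic aortas. The difference was 0.03 ± 0.10 (95% interval -0.19 to 0.25; limma adjusted p = 0.999). Jup, plakoglobin, which serves both adherens junctions and desmosomes, was the more variable of these rows. It had a lowest value of 6.33, a median of 6.42 and a highest of 7.08 in P467L aortas, against 6.46, 6.71, 6.47, 6.83 and 6.99 in nontransgenic aortas. In 4 of 7 P467L arrays the value was under every nontransgenic one, but replicate 3 had the highest of all 12, and the groups overlapped. The difference was -0.12 ± 0.14 (95% interval -0.42 to 0.19; limma adjusted p = 0.999). Its other row, with means of 6.15 in P467L and 6.00 in nontransgenic aortas, differed by 0.15 ± 0.10, so the 2 rows of Jup had opposite signs and neither passed.

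Neither cadherin passed the test. Cdh11, OB-cadherin, had a lowest value of 6.25, a median of 6.96 and a highest of 7.44 in P467L aortas, against 6.13, 6.14, 6.20, 6.62 and 6.16 in nontransgenic aortas. P467L replicates 4 to 7 lay above every nontransgenic array, while replicates 1 to 3 lay at or under nontransgenic replicate 4, so the groups overlapped. The means were 6.89 ± 0.42 (SD, n = 7) in P467L and 6.25 ± 0.21 (SD, n = 5) in nontransgenic aortas. The difference of 0.64 ± 0.19 had an unadjusted 95% interval from 0.24 to 1.04 but did not pass over all genes (limma adjusted p = 0.418). Its unadjusted p was under 0.05, as it was in 4.82% of all genes. The limma adjusted p stayed between 0.0643 and 0.795 over 23 alternative settings. Cdh2, N-cadherin, had a lowest value of 3.78, a median of 3.91 and a highest of 4.06 in P467L aortas, against 4.17, 3.98, 4.08, 3.81 and 3.95 in nontransgenic aortas. All 12 values were under background, so this row cannot show whether N-cadherin mRNA differed (difference -0.07 ± 0.08, limma adjusted p = 0.999).

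**Figure D2:**
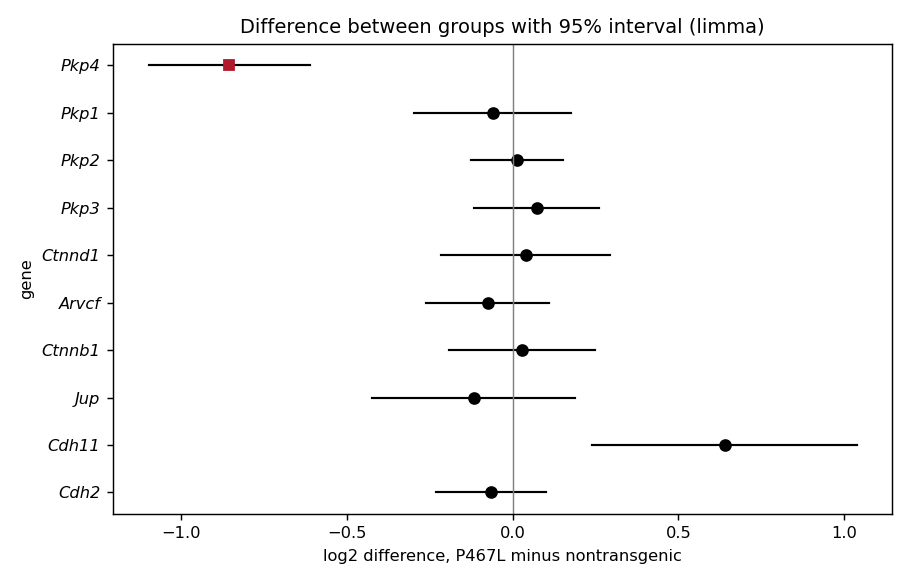
Log2 difference, P467L minus nontransgenic, of the 10 genes, with the unadjusted 95% interval from limma; the square marks Pkp4, whose difference led to the choice of the family. Pkp4 lies at -0.86 and Cdh11 at 0.64, while the intervals of the other 8 genes include 0.

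Of the 9 genes other than Pkp4, 0 passed the test over all genes in limma, against 0.244% of all genes. At an unadjusted p under 0.05 there was 1, Cdh11, against 4.82% of all genes. Their median difference was 0.014, with 4 of 9 below 0, beside a median of 0.0013 over all genes tested.

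The members also varied among mice of one group. Some were higher on brighter arrays, while Arvcf, Pkp1, Pkp3 and Cdh2 tended to be lower on them. Arvcf was 5.41 on the dimmest P467L array (replicate 2) and 5.17 on the brightest (replicate 5). On the dimmest and brightest nontransgenic arrays, also replicates 2 and 5, it was 5.39 and 5.13. Pkp1 was 5.07 and 4.56 on these P467L arrays, and 5.15 and 4.70 on these nontransgenic arrays. In the P467L group, Cdh11 was 6.25 to 6.62 in replicates 1 to 3, whose upper quartiles were 6.15, 6.10 and 6.24, and 6.96 to 7.44 in replicates 4 to 7, whose upper quartiles ran from 6.25 to 6.38. Ctnnd1 had its lower P467L values in the same 3 arrays. Pkp4 was also lower in them, at 7.32, 7.39 and 7.06, against 7.43 to 7.71 in replicates 4 to 7. With the upper quartile as a covariate the Pkp4 difference was -0.82 and that of Cdh11 was 0.73, close to the values without it, and the limma adjusted p of Cdh11 was 0.0643. The dimmer nontransgenic arrays, replicates 1 and 2 with upper quartiles of 6.20 and 6.16, had Pkp4 at 8.26 and 8.36. Both values lay above every P467L array, as the lack of overlap requires. The part of array brightness in the Pkp4 difference was not tested.

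**Figure D3:**
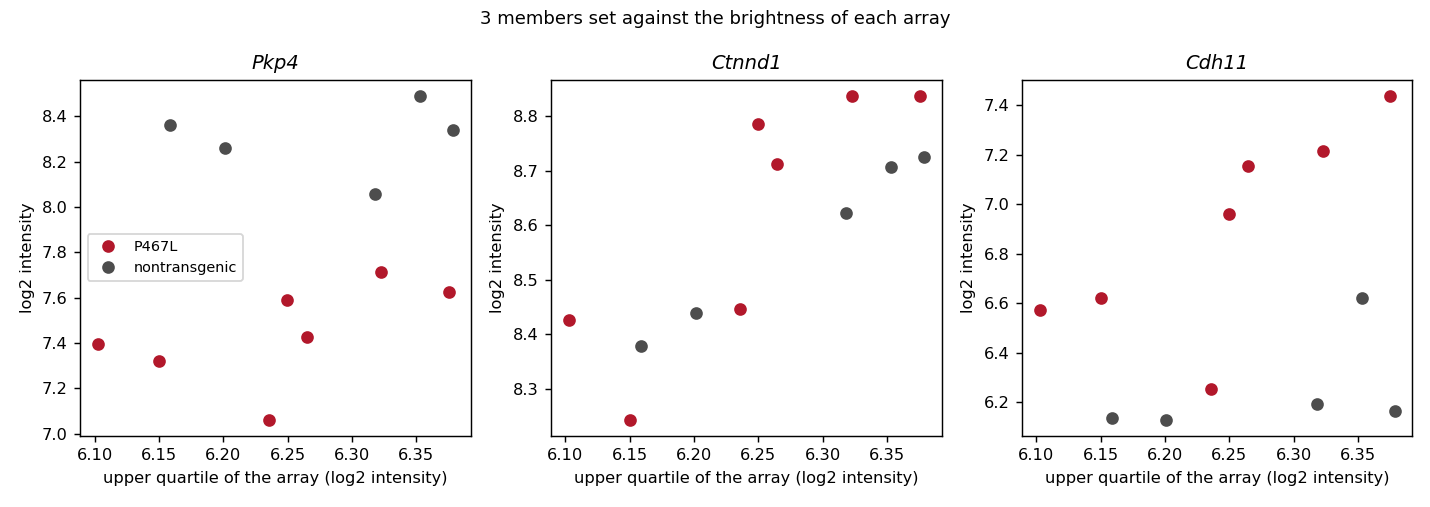
Log2 intensity of Pkp4, Ctnnd1 and Cdh11 (y) against the upper quartile of each array (x, log2 intensity), P467L in red (n = 7) and nontransgenic in grey (n = 5). All P467L points of Pkp4 lie below all nontransgenic points, Ctnnd1 tends to be higher on brighter arrays in both groups, and Cdh11 is higher on the brighter P467L arrays.

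After each group's mean was taken out, the Pearson correlation with Pkp4 over the 12 arrays was 0.81 for Cdh11, 0.62 for Ctnnb1, 0.61 for Ctnnd1 and 0.03 for Pkp2. It was -0.79 for Cdh2, -0.54 for Pkp3, -0.52 for Arvcf, -0.30 for Pkp1 and -0.29 for Jup. Among genes above background, r was no higher than that of Cdh11 in 97.7%, of Ctnnb1 in 86.8% and of Ctnnd1 in 86.0%, so values like the last 2 were common. These values are descriptions, since the arrays share the brightness gradient and the Cdh2 row is under background. With the group means left in, r with Pkp4 was -0.42 for Cdh11, 0.16 for Ctnnb1 and 0.15 for Ctnnd1. Over the 12 arrays as they stand, the 5 genes of 10636 above background that followed Pkp4 most closely were Kctd16 (r = 0.96), Bmpr1b, Plxna4, Abcc9 and Gabra3 (r = 0.94). Kctd16 is an auxiliary subunit of GABA-B receptors, Bmpr1b a BMP receptor, Plxna4 a semaphorin receptor, Abcc9 the sulfonylurea receptor of vascular KATP channels and Gabra3 a GABA-A receptor subunit. All 5 were lower in P467L without overlap, by -0.74 ± 0.11, -0.79 ± 0.12, -0.45 ± 0.07, -0.67 ± 0.11 and -1.07 ± 0.13 in that order, which their choice by likeness to Pkp4 favours. With the group means taken out the closest were Pja2 and Slc38a2 (r = 0.95 each), Ncald, Otud1 and Oip5os1 (r = 0.93). Pja2 is a ubiquitin ligase and Slc38a2 an amino acid transporter. Their differences between the groups, from -0.053 to 0.33, were unlike that of Pkp4, and no gene was in both sets of 5.

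The 10 genes lie on 8 chromosomes, with Pkp4 and Ctnnd1 both on chromosome 2 and Pkp2 and Arvcf both on chromosome 16. The 3 nearest measured genes on each side of Pkp4, taken by position alone, were Acvr1, Upp2 and Ccdc148 on one side and 5330411J11Rik, Dapl1 and Tanc1 on the other. Their differences ran from -0.053 (Ccdc148) to -0.0055 (5330411J11Rik), and none passed (limma adjusted p = 0.999 for each). Of these 6, Acvr1, an activin receptor with means of 6.79 in P467L and 6.83 in nontransgenic aortas, and Tanc1, a scaffold protein, were above background, so only these 2 show a level at the neighbouring positions.

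The other genes of the junction and of β-catenin signalling were read from 5 lists. Beside the counts of these lists, 4.82% of all genes had an unadjusted p under 0.05, and in 0.726% the groups did not overlap. Of 15 measured genes of the catenin complex and its linkers none passed in limma (2 had an unadjusted p under 0.05), with a median difference of -0.018. The smallest p among them was that of Tjp1, the tight junction scaffold ZO-1, with a mean of 8.82 in P467L and 8.58 in nontransgenic aortas and a difference of 0.24 ± 0.09 (limma adjusted p = 0.792).

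Of 20 other cadherins none passed in limma and 1 had an unadjusted p under 0.05. It was Cdh18, a cadherin known from the nervous system, at 4.12 in P467L and 4.60 in nontransgenic aortas, both under background, with a difference of -0.48 ± 0.10 (limma adjusted p = 0.0937). Only 5 of the 20 in P467L and 4 in nontransgenic aortas were above background. Of 13 desmosome genes none passed and 1 had an unadjusted p under 0.05, the intermediate filament gene Des, which also belongs to smooth muscle, at 6.22 in P467L and 5.61 in nontransgenic aortas without overlap (difference 0.61 ± 0.11, limma adjusted p = 0.0510). Des passed in 10 of 23 alternative settings (limma adjusted p between 0.0235 and 0.426). The medians of the 2 lists were -0.013 and -0.011.

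In the β-catenin pathway, 1 gene passed. Of 12 genes of the destruction complex, which marks β-catenin for degradation, none passed and 2 had an unadjusted p under 0.05; Amer1, a scaffold of this complex, had the smallest p, at 6.34 in P467L and 6.79 in nontransgenic aortas (difference -0.46 ± 0.16, limma adjusted p = 0.698). Of 16 coactivators and targets of β-catenin, 0 rose and 1 fell, against 0.127% of all genes lower. It was Tcf7l2, a DNA-binding partner of β-catenin, with 7.45 ± 0.14 (SD, n = 7) in P467L and 7.96 ± 0.13 (SD, n = 5) in nontransgenic aortas and no overlap. The difference was -0.50 ± 0.09 (limma adjusted p = 0.0320), and it passed in 9 of 23 alternative settings (adjusted p between 0.0145 and 0.410), not with the replicate block (limma adjusted p = 0.0940). Leaving out nontransgenic replicate 1, 3, 4 or 5, or P467L replicate 1, 2, 4, 5 or 6, ended the call. Sp5, a target of β-catenin, differed by 0.23 ± 0.10 and did not pass (limma adjusted p = 0.999), and the list's median was 0.0071.

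**Figure D4:**
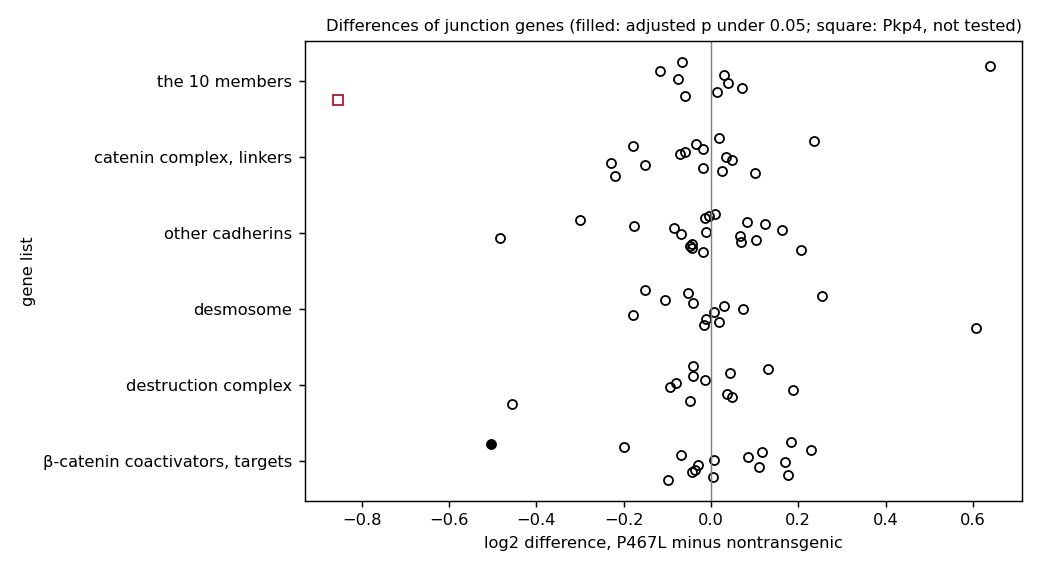
Log2 difference, P467L minus nontransgenic (x), of each measured gene of the 10 members and of 5 junction and β-catenin lists (y); a filled circle passed an adjusted p under 0.05 over all 19687 genes, and the red square is Pkp4, at -0.86, on which the family was selected. The filled circle is Tcf7l2 at -0.50, and the open circles at the right edge are Cdh11 at 0.64 and Des at 0.61.

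Markers of cells that could carry these junctions were set beside the members. Smooth muscle markers had a median difference of 0.0077 with none past the test, and Myh11, smooth muscle myosin heavy chain, was 11.80 ± 0.11 (SD, n = 7) in P467L and 11.86 ± 0.09 (SD, n = 5) in nontransgenic aortas. Of 10 endothelial markers none passed and 2 had an unadjusted p under 0.05, as had 4.82% of all genes. The sialomucin gene Emcn was at 5.26 in P467L and 6.14 in nontransgenic aortas (difference -0.88 ± 0.17, limma adjusted p = 0.0703). Its groups did not overlap, as in 0.726% of all genes. The tight junction gene Cldn5 was at 5.57 in P467L and 5.06 in nontransgenic aortas, the latter under background (difference 0.52 ± 0.13, limma adjusted p = 0.216). Cdh5, the endothelial VE-cadherin, was 7.33 ± 0.24 (SD, n = 7) in P467L and 7.25 ± 0.22 (SD, n = 5) in nontransgenic aortas. Of 10 epithelial and mesothelial markers 1 was above background in each group, and the epithelial adhesion molecule Epcam averaged 4.18 in P467L and 4.12 in nontransgenic aortas, under background like Pkp1. Fibroblast markers, 10 measured, had a mean level between 8.09 and 8.29 in P467L arrays and between 8.08 and 8.45 in nontransgenic arrays, and 1 of them, Mfap5, fell (-0.65 ± 0.10, limma adjusted p = 0.0183). Pdgfra, a defining fibroblast marker, differed by 0.06 ± 0.12. Adipocyte markers (9 measured, median -0.083), macrophage markers (9, median 0.048), Schwann and nerve markers (8, median 0.051) and skeletal muscle markers (9, median 0.28) held none past the test. With the adipocyte markers as a covariate the Pkp4 difference was -0.87, and without P467L replicate 4 it was -0.85. The part of the other cell types in the differences of Pkp4 and Cdh11 was not tested.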

How the data were processed

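Values for 101175 rows were deposited by the authors as log2 intensities; Affymetrix Power Tools, RMA and mm9 are named, per the submitters' processing notes, without versions or filters. RMA shrinks differences of dim rows towards 0. Rows with 1 gene symbol (22754) were named from the platform annotation, those with several (1522) or none (76899) were not, and 0 columns belonged to other samples. 1 row per gene, that of the highest mean, was fitted for 19687 genes with limma 3.58.1 (R 4.3.3; lmFit, eBayes, no covariate), with Benjamini-Hochberg adjustment over all genes and a threshold of 0.05. The fit was tested on simulated data whose values were independent between arrays, so that test does not cover variation that arrays share. Precision is limited by the number of arrays. The labels call each array 1 mouse.

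The members, lists, tests and the rule for naming genes were chosen with earlier results of these data known. Named were the 10 members, the list genes past the threshold, the smallest other p of each of 6 pathway lists (1 of which is not reported here), and the 5 genes most like Pkp4 by each of 2 measures; 8 marker lists are given as values, and neighbours by position. Arrays of equal replicate number deviated together from their group means (r between 0.227 and 0.398 in 5 pairs). The numbers were taken as pairs for the block, from the data and not the labels. This pairing is not established. By the same deviations, the P467L array closest to nontransgenic replicates 1 to 5 was replicate 2, 2, 3, 5 and 5, in that order. P467L replicates 6 and 7 have no partner, so they add nothing to a difference in the block fit. Alternatives were the block, each array left out, 3 arrays left out, other normalizations, covariates, variance models, rows and filters.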

Additional observations from a re-analysis of the deposited data

Results flagged for a closer look

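Of 20 sets of values (10 genes in 2 groups), 1 held an array far from the others. Cdh11 was 6.62 in nontransgenic replicate 4, while the next nontransgenic array was at 6.20, a gap of 0.868 of the group's whole range. Chance alone takes about 1 of 20 sets past the limit used, a gap of 0.71 for 5 arrays. Without this array the Cdh11 difference was 0.73 and the limma adjusted p 0.369.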

How the results depend on the processing

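Over 23 alternative settings the Pkp4 difference stayed between -0.94 (replicate block) and -0.79 (without P467L replicate 3), with the array left out giving -0.92 to -0.79. Its place among the genes past the threshold, which is no test here since the family was selected on it, was lost when all 101175 rows were tested and without the 3 arrays least correlated with the rest. None of the other 9 members passed under any of the 23. The number of genes past the threshold was 30 with the replicate block, 19 of them shared with the 48, 76 after quantile normalization, 106 with the upper quartile as a covariate, 9 among all rows, 8 without the 3 arrays and 11 to 48 with each array left out; the cause was not tested. Members near 0 changed sign. With the replicate block, to which P467L replicates 6 and 7 add nothing, the difference was 0.0021 for Pkp1, -0.0036 for Pkp2, -0.040 for Ctnnd1 and -0.052 for Ctnnb1. The difference was -0.0024 for Pkp2 with array weights and 0.015 for Jup over the mean of its rows. With each array left out it ran from -0.11 to 0.019 for Pkp1, -0.017 to 0.051 for Pkp2, -0.0099 to 0.10 for Ctnnd1 and -0.028 to 0.084 for Ctnnb1. The block changed no call among the members. Signal at or under background limits Pkp1, Pkp2, Arvcf and Cdh2.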
